A study of Danio rerio with 6 samples.

Results

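The AP-1 genes are 9 genes of the Fos and Jun families, fosaa, fosab, fosb, fosl1a and fosl2 and jun, junba, junbb and jund, taken by gene symbol from a table of 25920 zebrafish genes. All 9 were found and all 9 passed the filter on low counts that left 22092 genes. Larvae were exposed to 100 µM DAPT or to the solvent DMSO from 60 hours post fertilization (hpf), RNA was sequenced at 96 hpf, and there were 3 libraries per group. DAPT inhibits gamma-secretase, the protease that frees the active part of Notch receptors. Every library, DAPT and DMSO alike, came from fish carrying Tg(myl7:mCherry), in which the myl7 promoter drives a red fluorescent protein in heart muscle cells. The labels give hearts as the tissue, whereas the series' design text speaks of embryos. The labels state neither how many fish went into a library nor whether libraries of one group are independent clutches, so the spread behind the p-values may be technical.

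AP-1 is a transcription factor made of 2 proteins joined through leucine zippers. Jun proteins can pair with each other or with Fos proteins, while Fos proteins need a Jun or another leucine zipper partner to bind DNA. In mammalian cells several of the fos and jun genes, though not all, are immediate-early genes. These are switched on within minutes by growth factors, injury or stress through MAP kinases and serum response factor. The AP-1 proteins control genes of growth, wound repair and matrix breakdown. In zebrafish, AP-1 is known from regenerating fins and hearts.

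Totals per library were 21439371 to 21808613 estimated counts with DAPT and 20542549 to 20656633 with DMSO. Heart muscle markers were abundant. Their 8 genes summed to 8399 to 8784 CPM in DAPT libraries and 4226 to 5354 CPM in DMSO libraries. CPM are counts put on one scale by library size and TMM factors. Of these 8 genes 7 rose and 1 fell. Markers of other tissues were present in every library. The 6 epidermal markers summed to 25809 to 27409 CPM with DAPT and 24974 to 28553 CPM with DMSO, and of these 1 rose, 2 fell and 3 did not pass. The retina and lens, exocrine pancreas and liver markers (8, 7 and 7 genes) all fell. Their sums were 935.4 to 955.8, 583 to 652 and 1560 to 1594 CPM with DAPT, against 2030 to 3186, 1340 to 1688 and 2928 to 3428 CPM with DMSO. All 5 erythrocyte markers rose, with sums of 6491 to 7032 CPM with DAPT and 3654 to 4306 CPM with DMSO. Of 6 neural markers 4 fell and 2 did not pass (705 to 764 CPM with DAPT and 800.7 to 945 CPM with DMSO), and of 7 skeletal muscle markers 3 rose and 4 did not pass (6587 to 8128 CPM with DAPT and 4632 to 6146 CPM with DMSO). The AP-1 values are therefore those of a mixture of tissues, in which fewer cells of a type and less RNA per cell cannot be told apart, and the part of these marker shifts in the AP-1 changes was not tested.

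Among the Jun genes jun had the largest rise with DAPT, and the Fos genes went different ways. By edgeR's quasi-likelihood test all 4 Jun members rose, but 2 of them (junba and junbb) did not pass with library totals alone, on both TPM scales or without DAPT replicate 3. Of the 5 Fos members 2 rose (fosaa and fosl1a), 1 fell (fosb) and 2 did not pass (fosab and fosl2). The change of fosb, to less than its level in DMSO libraries by a log2 fold change of -1.24, was the largest of the 9 members. Over all 22092 genes tested 22.4% rose and 24.3% fell, together 46.6%, so a call as such was common. The share of calls that were rises was 48.0% with TMM scaling, 32.5% with scaling by library totals alone and 24.9% on the log2(TPM + 1) scale. In CPM the groups did not overlap in 8 of the 9 members, which also held for 56.8% of all genes tested. In 7 members every DAPT value was above every DMSO value, as in 27.8% of all genes tested.

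**Figure D1:**
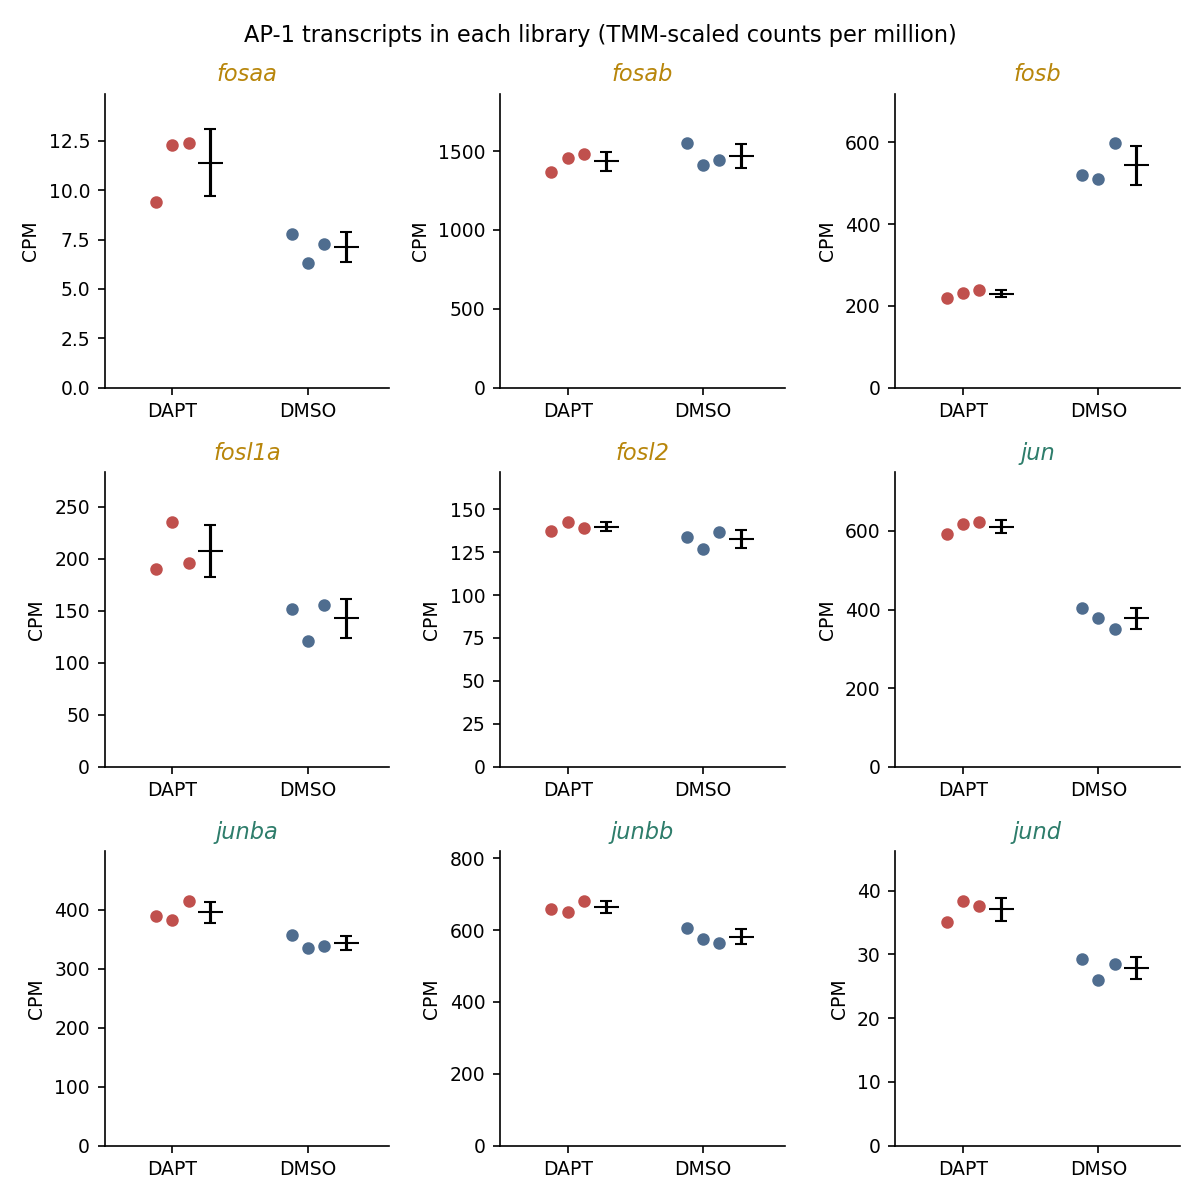
CPM (linear axes from 0) of each AP-1 gene in the 3 DAPT libraries (red, left) and the 3 DMSO libraries (blue, right), with the mean and SD beside the points. The 3 DAPT values of fosb lie between 220.3 and 238 CPM, below the DMSO values of 511 to 599 CPM, and those of jun lie above the DMSO values.

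Of the Fos members, fosb encodes a Fos protein with strong activating domains in mammals. Its level was 220.3, 231 and 238 CPM in DAPT libraries, against 519, 511 and 599 CPM in DMSO libraries. Every DAPT value lay below every DMSO value, with a wide gap. The log2 fold change was -1.24 ± 0.07 (SE, adjusted p = 9.57e-08), which is 0.423 times the DMSO level. Its size exceeded that of 94.9% of the genes tested, and it passed in all 14 alternative fits, between -1.17 and -1.40.

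The gene fosab is the zebrafish counterpart of mammalian FOS, the founding member of the family, and was the most abundant of the 9. It had 1367, 1454 and 1481 CPM with DAPT and 1554, 1413 and 1442 CPM with DMSO. The ranges overlapped, and the log2 fold change of -0.04 ± 0.07 did not pass (adjusted p = 0.694). In the authors' TPM, a level scaled by gene length and to the same total in every library, fosab had 1307, 1362 and 1445 TPM with DAPT and 1620, 1508 and 1573 TPM with DMSO. On that scale the groups did not overlap, and limma on log2(TPM + 1) passed at -0.19 (adjusted p = 0.0273; the 14 alternatives gave 0.0266 to 0.996), while the median of all genes tested was itself at -0.13 there and at 0.00 with TMM scaling. Relative to that median, fosab stood at -0.06 in TPM and -0.03 in TMM-scaled counts. Without DAPT replicate 1 or DMSO replicate 1 its value was 0.00 or 0.01.

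The gene fosl1a encodes a Fos-like protein (Fra-1 in mammals) without the strong activating domain of the longer Fos proteins. It had 189.8, 236 and 196 CPM in DAPT libraries and 152, 121 and 155 CPM in DMSO libraries. All DAPT values lay above all DMSO values, though both groups spread more widely than most members, with a coefficient of variation of 12.1% with DAPT and 13.4% with DMSO. Counting error alone gives 1.52% and 1.81%. The rise was 0.54 ± 0.10 on the log2 scale (adjusted p = 0.000955). The related fosl2 (Fra-2 in mammals) had 137.5, 143 and 139 CPM with DAPT and 134, 127 and 137 CPM with DMSO. In CPM its groups lay side by side with hardly a gap, and in TPM they overlapped. The log2 fold change of fosl2, 0.08 ± 0.05, did not pass (adjusted p = 0.272). Its sign depended on the scaling, at -0.02 with library totals alone and -0.08 on the log2(TPM + 1) scale. The median of all genes tested was itself at -0.10 and -0.13 there. Relative to that median, fosl2 stood at 0.08 with TMM scaling, 0.08 with library totals alone and 0.05 on the log2(TPM + 1) scale.

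The second FOS counterpart, fosaa, was the least abundant member. Its read counts were 197, 252 and 264 in DAPT libraries and 163, 133 and 159 in DMSO libraries, or 9.42, 12.3 and 12.4 CPM against 7.80, 6.32 and 7.25 CPM. The DAPT values were all higher, one of them by little, and the log2 fold change was 0.67 ± 0.13 (adjusted p = 0.000969). The pair of FOS counterparts thus had different values with DAPT, fosab being by far the more abundant, and a test of the difference between the 2 genes' changes was not made.

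Among the Jun members, jun encodes the counterpart of mammalian c-Jun, the main substrate of the JNK kinases. It had 591, 618 and 624 CPM in DAPT libraries and 403, 378 and 351 CPM in DMSO libraries. All 3 DAPT values were far above the 3 DMSO values, and the log2 fold change was 0.70 ± 0.07, a 1.62-fold rise (adjusted p = 4.75e-06). The rise was 0.54 to 0.75 over the 14 alternative fits and passed in each. The gene jund, whose mammalian counterpart is expressed steadily and often restrains growth, had 35.1, 38.45 and 37.6 CPM with DAPT and 29.3, 26.0 and 28.55 CPM with DMSO. It rose by 0.41 ± 0.07 (adjusted p = 0.000448), again with no overlap of the groups.

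The 2 junb genes, counterparts of mammalian JUNB, which is a weaker activator than c-Jun and can oppose it, rose by little. The gene junba had 388.5, 382 and 415.5 CPM in DAPT libraries and 357, 334.5 and 339 CPM in DMSO libraries, and junbb had 659.9, 652 and 682.5 CPM against 606, 574.5 and 565 CPM. In both genes the gap between the groups was small in CPM, and in TPM the groups overlapped. The log2 fold changes were 0.20 ± 0.06 (adjusted p = 0.0147) for junba and 0.19 ± 0.06 (adjusted p = 0.0182) for junbb. Both calls depended on the scaling and on single libraries. With library totals alone the values were 0.11 (adjusted p = 0.159) and 0.10 (adjusted p = 0.177), and on the log2(TPM + 1) scale 0.04 (adjusted p = 0.58) and 0.03 (adjusted p = 0.632), each against a median of all genes of -0.10 and -0.13. Without DAPT replicate 3 they were 0.17 (adjusted p = 0.0814) and 0.17 (adjusted p = 0.0798), so that 2 of 4 Jun members rose, and without DAPT replicate 1 junbb was 0.20 (adjusted p = 0.0544). Over the 14 alternatives adjusted p was 0.00571 to 0.58 for junba and 0.00541 to 0.632 for junbb.

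**Figure D2:**
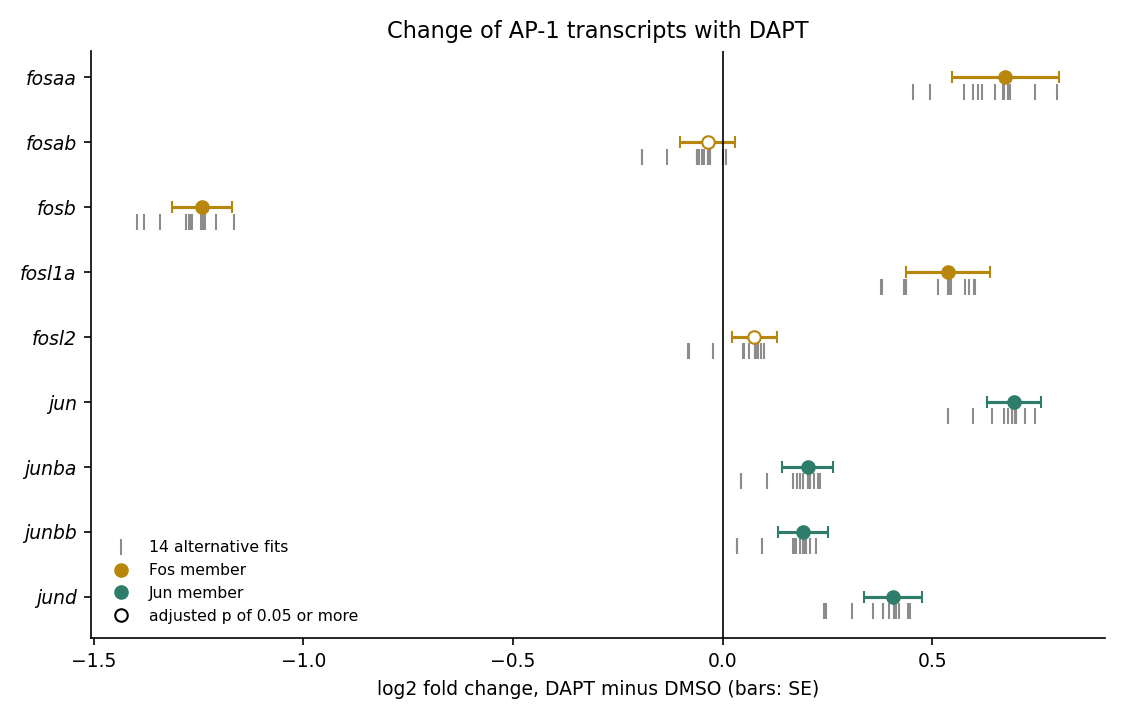
Log2 fold change, DAPT minus DMSO, of each AP-1 gene with its standard error (points and bars; Fos members in ochre, Jun members in green, open where adjusted p was 0.05 or more), with the values from 14 alternative fits as grey ticks beneath. The ticks of fosb, jun, jund, fosaa and fosl1a stay on one side of 0, those of fosab and fosl2 lie on both sides, and those of junba and junbb reach down to 0.04 and 0.03.

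Levels of different genes can be compared per length, in TPM. With DAPT the order was fosab (1371 ± 69.3 TPM, SD, n = 3), junbb (648.9 ± 28.4), jun (525.5 ± 20.2), junba (434 ± 28.7), fosl1a (188 ± 19.6), jund (62.4 ± 2.81), fosb (53.9 ± 2.37), fosl2 (37.1 ± 0.640) and fosaa (11.7 ± 2.12). In DMSO libraries it was fosab (1567 ± 56.4 TPM), junbb (633 ± 10.4), junba (421 ± 10.3), jun (362 ± 17.1), fosl1a (145 ± 20.0), fosb (142 ± 13.4), jund (52.7 ± 3.27), fosl2 (39.3 ± 2.07) and fosaa (8.22 ± 0.716). Neighbours in each order did not overlap, except fosl1a and fosb in DMSO libraries. Thus jun stood above junba with DAPT and below it with DMSO, and fosb stood below jund with DAPT and above it with DMSO. Among all 25920 genes ranked by mean TPM, fosab was number 133 with DAPT and 121 with DMSO, and fosb was number 2220 with DAPT and 865 with DMSO. The gene length implied by the authors' FPKM was 6196 to 6633 bases for fosb over the 6 libraries and 1577 to 1595 bases for fosab. The fosb length averaged 6467 bases with DAPT and 6438 bases with DMSO, and its read counts were lower with DAPT as well, at 4607, 4734 and 5060, against 10847, 10764 and 13137 with DMSO.

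Taken per length and within each library, which leaves the scaling between libraries out, the Fos members held 49.1, 50.8 and 49.7% of the summed TPM of the 9 genes in DAPT libraries and 56.5, 55.6 and 57.2% in DMSO libraries. The groups did not overlap, and the means were 49.9 ± 0.888% and 56.4 ± 0.810% (SD, n = 3 each). Sums of TPM, unlike these shares, depend on the scaling between libraries, and the median of all genes was at -0.13 on the log2(TPM + 1) scale. The sum over all 9 genes overlapped between the groups, at 3333 ± 142.7 TPM with DAPT and 3371 ± 104 TPM with DMSO. The Fos sum was 1663 ± 78.2 and 1902 ± 80.3 TPM and the Jun sum 1671 ± 75.8 and 1469 ± 31.9 TPM. In TMM-scaled counts the Fos sum was 1924 to 2076 CPM with DAPT and 2178 to 2366 CPM with DMSO. The Jun sum was 1675 to 1760 and 1283 to 1396 CPM. The largest differences in share were those of 3 genes. The share of fosab was 41.1 ± 0.428% with DAPT and 46.5 ± 0.303% with DMSO, that of jun 15.8 ± 0.0713% and 10.7 ± 0.533%, and that of fosb 1.62 ± 0.0521% and 4.22 ± 0.379%. The difference in the Fos share was -6.55 percentage points. With fosab left out of both the Fos sum and the total, it was -3.71 percentage points. These are shares of different totals, so their sizes cannot be set against each other.

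**Figure D3:**
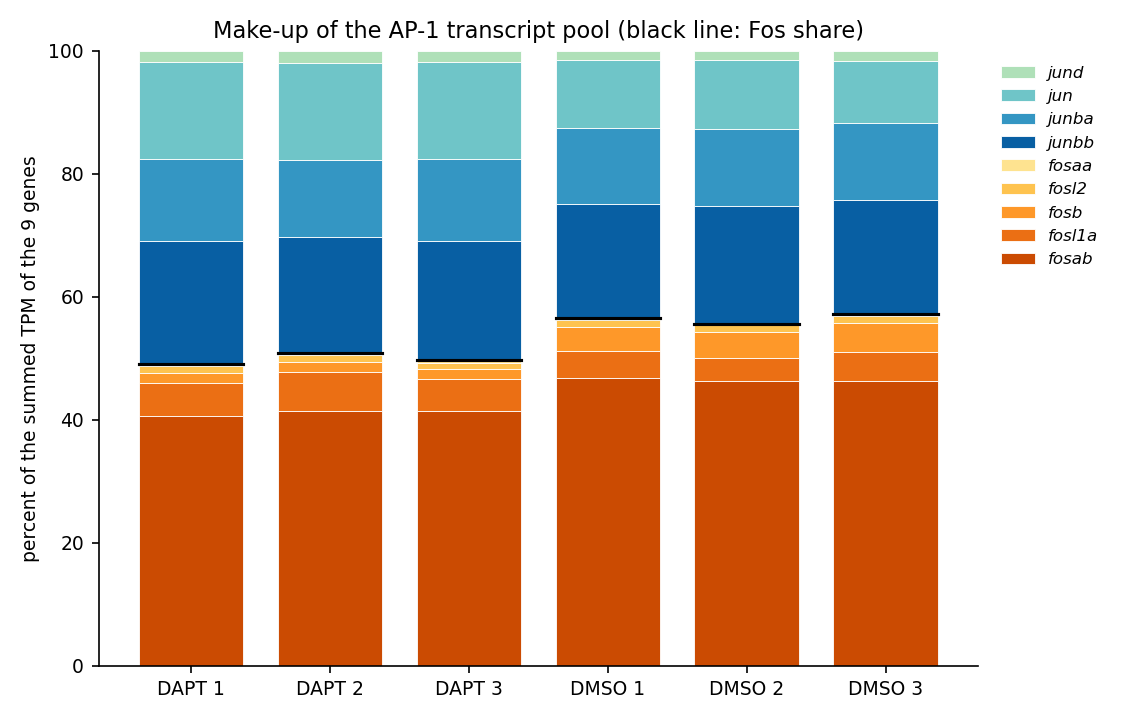
Share of each AP-1 gene in the summed TPM of the 9 genes, per library (DAPT 1 to 3 left, DMSO 1 to 3 right; Fos members in orange shades at the bottom, Jun members in blue and green shades above), with a black line at the Fos share. The line lies at 49.1 to 50.8% in DAPT libraries and at 55.6 to 57.2% in DMSO libraries.

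Ratios between 2 members were also taken within each library. Between the families, the TPM of fosab over that of jun was 2.57, 2.62 and 2.64 in DAPT libraries and 4.285, 4.16 and 4.57 in DMSO libraries, and that of fosb over jun was 0.106, 0.0992 and 0.103 with DAPT and 0.358, 0.369 and 0.4585 with DMSO. Within the Fos family, the TPM of fosb over that of fosab was 0.0411, 0.0379 and 0.0390 in DAPT libraries and 0.0836, 0.0888 and 0.1003 in DMSO libraries. Within the Jun family, the TPM of jun over that of junbb was 0.789, 0.835 and 0.806 with DAPT and 0.586, 0.580 and 0.547 with DMSO. In these 4 ratios the groups were apart, and a two-sided exact permutation test over the libraries gave p = 0.1 for each, the smallest that 3 against 3 allows. Groups that are apart always give this value, so the test adds nothing to the separation. The ratio of junba to junbb was 0.669 ± 0.0151 with DAPT and 0.664 ± 0.0117 with DMSO (exact permutation p = 0.7), with overlapping values. The ratios of fosb to fosl2, fosl1a to fosl2 and jun to junba were also taken, and in each the groups were apart. All these ratios were chosen after the values were seen.

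The other leucine zipper genes that pair with Fos and Jun proteins, or belong to related families, went both ways. Of 21 listed, 17 passed the filter, and of these 4 rose, 6 fell and 7 did not pass, with a median log2 fold change of 0.01 beside 0.00 for all genes tested. Thus 58.8% of the 17 were called, against 46.6% of all genes tested. The Fos-like genes fosl1b and fosl2l, which were on this list, did not pass the filter and have no fold change here. The gene jdp2b, whose mammalian counterpart JDP2 pairs with Jun and represses AP-1 sites, had 173.7, 159.7 and 194.4 CPM with DAPT and 241, 238 and 252 CPM with DMSO. All its DAPT values were lower, and it fell by 0.47 ± 0.07 on the log2 scale (adjusted p = 0.000208). The antioxidant factor gene nfe2l2a rose by 0.56 ± 0.06, its relative nfe2l1a by 0.84 ± 0.10 and mafbb by 0.63 ± 0.07. The erythroid and platelet factor gene nfe2 fell by 1.09 ± 0.17 and mafa by 0.57 ± 0.10, both from low levels, while the 5 erythrocyte markers rose in the same libraries. The stress gene atf3, chosen after its values were seen, had 251 ± 10.6 CPM with DAPT and 259.7 ± 41.3 CPM with DMSO and did not pass (-0.05 ± 0.09, adjusted p = 0.709).

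Genes for the kinases that act on AP-1 proteins mostly did not pass. Of 29 genes tested of the JNK, p38 and ERK cascades, 4 rose, 4 fell and 21 did not pass (the median change was 0.06), so that 27.6% were called, against 46.6% of all genes tested. With library totals alone 3 rose and 8 fell, and on the log2(TPM + 1) scale 2 rose and 9 fell. The stress kinase gene map3k5 rose by 0.43 ± 0.07, map2k4b, which encodes an activator of JNK, by 0.40 ± 0.07, and the p38 gene mapk12a by 0.29 ± 0.06. The JNK scaffold genes mapk8ip3 and mapk8ip1b fell by 0.59 ± 0.07 and 0.56 ± 0.14, and the p38 activator gene map2k6 by 0.19 ± 0.06. Without DAPT replicate 1 there were 3 higher and 2 lower, and map2k6 was at -0.18 (adjusted p = 0.0589; the alternatives gave 0.00142 to 0.0589), and without DAPT replicate 2 at -0.18 (adjusted p = 0.0533). On the log2(TPM + 1) scale mapk12a was at 0.13 and did not pass (adjusted p = 0.108; the alternatives gave 0.00223 to 0.109). Of the 10 genes for MAP kinase phosphatases, which switch these kinases off, dusp4 (0.50 ± 0.07) and dusp8a (0.30 ± 0.07) rose and 8 did not pass (median 0.09). Thus 20.0% were called, against 46.6% of all genes tested. Scaled by library totals 2 of the 10 rose and 1 fell, and on the log2(TPM + 1) scale 1 rose and 1 fell. The rise of dusp8a did not pass on the log2(TPM + 1) scale (0.14, adjusted p = 0.109; the alternatives gave 0.000909 to 0.11).

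Of 15 genes for serum response factor, its ternary complex and myocardin-related partners, and the CREB and MEF2 factors, 7 rose and 8 did not pass (the median change was 0.25). The share called was 46.7%, against 46.6% of all genes tested. All of these calls were rises, whereas 22.4% of all genes tested rose and 24.3% fell. With library totals alone 6 of the 15 rose and 1 fell. The serum response factor gene srfb rose by 0.59 ± 0.15, its coactivator genes mrtfab and mrtfba by 0.40 ± 0.07 and 0.31 ± 0.06, the ternary complex factor gene elk3 by 0.30 ± 0.08, and mef2d and mef2ca by 0.34 ± 0.08 and 0.30 ± 0.09. On the log2(TPM + 1) scale 2 rose (srfb and mrtfab) and 1 fell (creb1b, named after its values were seen). There mrtfba was at 0.12 (adjusted p = 0.275; the alternatives gave 0.00105 to 0.275), mef2d at 0.19 (0.083; 0.000357 to 0.0831), elk3 at 0.18 (0.131; 0.00425 to 0.131) and mef2ca at 0.14 (0.188; 0.00481 to 0.188), and none of these passed. Single libraries also ended the calls of elk3, at 0.28 (adjusted p = 0.052) without DAPT replicate 3, and mef2ca, at 0.25 (adjusted p = 0.0545) without DAPT replicate 2. Counts of mef2ca were not all whole and may include reads shared with similar genes. Of the 8 heart muscle markers listed above, 7 rose and 1 fell in the same libraries, and mef2ca is also known from muscle.

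Among 15 genes for the turnover of Jun and Fos proteins and for corepressors, 3 rose, 5 fell and 7 did not pass (the median change was -0.02). Thus 53.3% were called, near the 46.6% of all genes tested. With library totals alone 2 of the 15 rose and 6 fell, and on the log2(TPM + 1) scale 1 rose and 8 fell. The ubiquitin ligase gene itchb rose by 0.45 ± 0.13 and the casein kinase gene csnk2a1 by 0.19 ± 0.06, while csnk2a2b fell by 0.24 ± 0.05. The menin gene men1, whose mammalian product binds JunD, fell by 0.39 ± 0.08, and jazf1b by 0.32 ± 0.06. Counts of jazf1b were not all whole and may include shared reads. There were 2 higher and 3 lower without DAPT replicate 2 or without DAPT replicate 3. The rise of itchb did not pass without DAPT replicate 2 (0.38, adjusted p = 0.0522; the alternatives gave 0.00516 to 0.0856). That of csnk2a1 did not pass without DAPT replicate 3 (0.17, adjusted p = 0.0734; the alternatives gave 0.0101 to 0.603) or with library totals alone (0.09, adjusted p = 0.194).

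Other immediate-early genes were split. Of 50 tested, 18 were higher, 15 lower and 17 not past the threshold, beside 22.4% higher and 24.3% lower over all genes tested, and the median change was 0.03. The groups did not overlap in 34 of the 50, as in 56.8% of all genes tested. With library totals alone 15 were higher and 17 lower, and on the log2(TPM + 1) scale 13 were higher and 18 lower. The nuclear receptor genes nr4a1 and nr4a3 fell, like fosb. The level of nr4a1 was 131, 124.5 and 132 CPM with DAPT and 199, 198 and 209 CPM with DMSO, all DAPT values being lower (-0.65 ± 0.06, adjusted p = 1.98e-06), and nr4a3 fell by 0.77 ± 0.08. The transcription factor gene klf4 had 17.9, 17.2 and 18.7 CPM with DAPT and 34.6, 33.3 and 37.45 CPM with DMSO (-0.97 ± 0.07, adjusted p = 6.23e-07). The matrix-associated gene ccn2b, listed in the table as ctgfb, fell by 1.43 ± 0.14 from a low level. The survival gene mcl1b rose by 0.90 ± 0.08 and the growth regulator gene btg1 by 0.66 ± 0.06. The gene egr1, often induced together with fos and chosen here after its values were seen, had 402 ± 10.1 CPM with DAPT and 350.3 ± 22.7 CPM with DMSO (0.20 ± 0.06, adjusted p = 0.0207). Its values in the alternative fits are not given here. The other egr genes of the list, also named after their values were seen, did not rise. Of these, egr2a (-0.61 ± 0.09), egr2b (-1.04 ± 0.13, at a low level) and egr3 (-0.36 ± 0.055) fell, and egr4 did not pass. The clock genes per1a, per1b and per2 of the list, also named after their values were seen, rose. The level of per1b was 105, 111.5 and 105.7 CPM with DAPT. With DMSO it was 32.15, 61.65 and 16.47 CPM, a wide spread. The part of that spread in the other values was not tested.

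Of 27 genes tested that were listed here as AP-1 targets, 18 rose, 5 fell and 4 did not pass, with a median log2 fold change of 0.33. Whether each of them is a target in these tissues was not tested. Thus 85.2% were called, against 46.6% of all genes tested (22.4% higher and 24.3% lower). Scaled by library totals 14 of the 27 rose and 6 fell, and on the log2(TPM + 1) scale 13 rose and 6 fell. The collagenase gene mmp13a had 233.5, 377 and 261 CPM in DAPT libraries and 33.8, 31.2 and 29.7 CPM in DMSO libraries, and the gelatinase gene mmp9 had 291, 426 and 312 CPM against 62.0, 58.0 and 48.2 CPM. In both genes every DAPT value lay far above every DMSO value. The log2 fold changes were 3.20 ± 0.15 and 2.61 ± 0.14. The ErbB ligand gene hbegfa rose by 1.24 ± 0.07, the inhibitor gene timp2b by 1.53 ± 0.13, the cytokine gene il11a by 1.21 ± 0.11 and the glutathione synthesis gene gclc by 0.75 ± 0.06. The adjusted p of these 6 genes was at most 2.96e-06, and each passed in all 14 alternatives. The 5 that fell, named after their values were seen, were the matrix protease gene mmp14a, the plasminogen activator genes plaua and plaub, the haem oxygenase gene hmox1a and spp1, at -0.22 to -0.96. The target list was chosen with earlier results of these data known, so its counts and median are descriptions. Binding of AP-1 proteins was not measured. The gene mmp9 is also made by neutrophils and macrophages. Of 7 other markers of these cells 4 fell and 3 did not pass, with sums of 91.5 to 99.1 CPM with DAPT and 121 to 125 CPM with DMSO. The part of these cells in the mmp9 value was not tested.

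**Figure D4:**
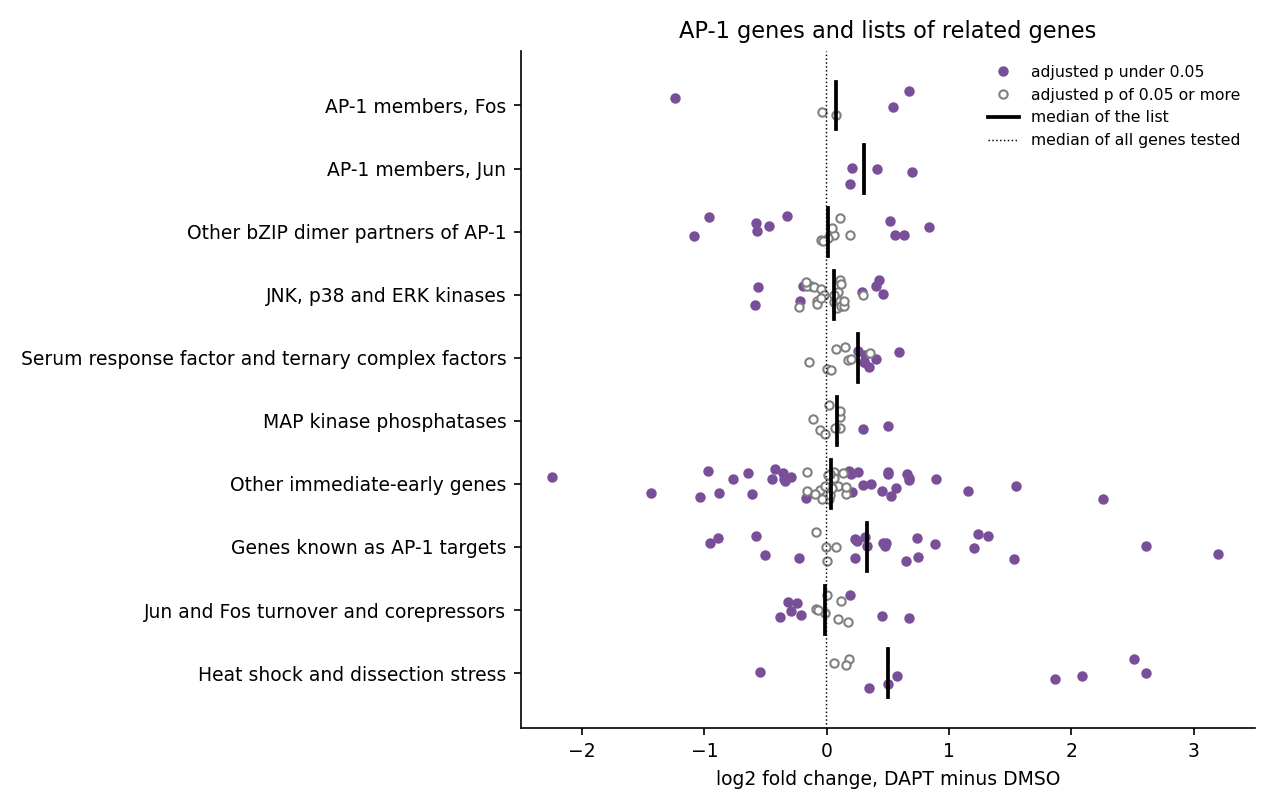
Log2 fold change, DAPT minus DMSO, of each gene tested in the AP-1 family and in lists of related genes (filled where adjusted p was under 0.05), with the median of each list (black bar) and that of all genes tested (dotted line). Medians run from -0.02 for turnover and corepressor genes to 0.33 for the genes listed as AP-1 targets and 0.50 for heat shock genes.

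Heat shock genes moved in the same libraries. Of 11 tested 7 rose, 1 fell and 3 did not pass (the median change was 0.50), and their sum was 5714 to 7420 CPM with DAPT and 1352 to 2536 CPM with DMSO. Thus 72.7% of them were called, against 46.6% of all genes tested, of which 22.4% rose. The inducible chaperone gene hsp70.1 had 2412, 3406 and 2548 CPM with DAPT and 814, 359 and 193 CPM with DMSO, so DMSO replicate 1 was the highest of its group. Without that library the log2 fold change of hsp70.1 was 3.34, against 2.61 ± 0.38 with it. The chaperone genes hsp70.3, dnajb1b, hsp90aa1.2, hspb1 and hspa5 rose by 2.51 ± 0.35, 2.09 ± 0.21, 1.87 ± 0.14, 0.57 ± 0.08 and 0.50 ± 0.06. Counts of hsp70.1, hsp70.3 and hsp90aa1.2 were not all whole and may include shared reads. The heat shock list, too, was chosen with earlier results of these data known. The part of the heat shock rise in the AP-1 values was not tested.

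The genes whose log2 CPM followed a member most closely over the 6 libraries were sought among 12059 genes with a mean of at least 10 CPM. For fosab they were zic2b (r = 0.984), bmpr1ba (0.974), si:dkey-163m14.2 (0.944), hectd4 (0.939) and pard6a (0.932), none of which passed the test between the groups. For junba they were ubap2a (r = 0.995), ppp2r2aa (0.992), rab35b (0.989), pikfyve (0.989) and als2a (0.989). By the edgeR test pikfyve did not pass (adjusted p = 0.0854) and the other junba followers rose, als2a narrowly (adjusted p = 0.0464). Of the 14 alternative fits als2a passed in 2, ubap2a in 10, ppp2r2aa in 12 and rab35b in 14. The correlations are descriptions over 6 points, which share their groups and scaling factors.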

How the data were processed

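Per the file headers the authors deposited read counts, TPM and FPKM per gene and library. As 15.2 to 16.0% of the deposited counts were not whole (tolerance 0.001), they were treated as estimated counts and rounded. All 6 counts of every AP-1 gene were whole. The FPKM served only to derive gene lengths. The tools named in the submitters' processing notes are featureCounts 1.6.0, STAR 2.7.1a and edgeR, with build GRCz11. Their roles, the annotation and the strand setting are not given in the sources used here. Counts were fitted with edgeR 4.0.16 in R 4.3.3, with filterByExpr, TMM factors and a quasi-likelihood F test. There were 4 residual degrees of freedom, to which this test adds prior ones estimated across genes. The p-values were adjusted by Benjamini-Hochberg over 22092 genes, with a threshold of 0.05. The standard error is the log2 fold change divided by the square root of F. Alternatives were DESeq2 1.42.0, limma 3.58.1 (voom, and log2(TPM + 1) or log2(TPM + 0.1) with trend), library totals, other filters, a replicate block and leaving out each library. Scripts were tested on simulated data in which far fewer genes changed than were called here. That test does not bear on the choice of scaling. Besides the members, up to 6 passing genes of each list with the smallest p are named, and the 5 genes most correlated with fosab and with junba. A gene that this rule names is not reported here. Members and lists were chosen with earlier results of these data known. Listed symbols were matched to the table, or through gene IDs in RefSeq's GRCz12tu gene table. The authors' group means were not used.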

Additional observations from a re-analysis of the deposited data

How the results depend on the processing

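The calls of fosb, jun, jund, fosaa and fosl1a kept their direction and side of the threshold in all 14 alternative fits. With library totals alone junba was 0.106 and junbb 0.095, neither passing, so that 2 Jun members rose, and fosl2 was -0.022. On the log2(TPM + 1) and log2(TPM + 0.1) scales fosab passed at -0.193 in both, junba was 0.043 and junbb 0.034 in both without passing, 2 Jun members and 3 genes of the serum response list were called, fosl2 was -0.080 and -0.082, pikfyve -0.029 and -0.031, and 2611 genes were higher, against 4940 in TMM-scaled counts. The TPM and library-total scalings move the median of all genes to between -0.156 and -0.102. Leaving out a library gave 0.168 to 0.233 for junba, 0.170 to 0.223 for junbb, 2 to 4 Jun members higher, -0.061 to 0.008 for fosab, 5 to 9 genes called of the kinase list and 5 to 7 of the turnover list. It gave -0.194 to 0.004 for bmpr1ba, -0.027 to 0.019 for si:dkey-163m14.2 and -0.086 to 0.084 for pard6a. The difference in the Fos share was -6.55 percentage points, -9.09 in CPM in place of TPM and -7.03 to -6.16 without single libraries. It was -3.71 with fosab left out of both the Fos sum and the total, which is a share of a different total. Libraries with the same replicate number did not deviate together (r = -0.0773 to 0.00675 over genes), so the numbers were not taken as pairs. With the replicate block 0 AP-1 calls changed, and 4655 genes were higher and 5061 lower. The 133 to 264 counts of fosaa gave it the largest counting error of the 9 members, at 6.49% with DAPT and 8.12% with DMSO.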
